A study of Mus musculus with 12 samples.

Results

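The 41 genes described here code for ribosome biogenesis factors, the proteins that make, trim and modify ribosomal RNA and assemble it with ribosomal proteins in the nucleolus. They were chosen by function, as a list of gene symbols drawn up with earlier results of these data known, and matched by symbol to the table that the authors deposited. All 41 were among the 56748 genes of the count table, and all 41 passed the filter on low counts that left 15688 genes for testing. By role they comprised 5 proteins of box C/D snoRNPs, 4 of box H/ACA snoRNPs, 3 abundant nucleolar proteins, 5 of RNA polymerase I transcription, 5 of the small-subunit processome, 14 of 60S assembly and 5 of 40S assembly.

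The data are 12 bulk RNA-seq libraries of mouse CD8+ T cells, 3 in each of 4 groups. In experiment 2 the strain label was Pmel-1, that is B6.Cg-Thy1a/Cy mice with the receptor transgene Tg(TcraTcrb)8Rest/J, and 3 libraries were from cells expanded with 5 mM dichloroacetate (DCA) and 3 from untreated cells. In experiment 1 the strain label was OT-1 with the genotype C57BL/6-Tg(TcraTcrb)1100Mjb/J, again with 3 DCA and 3 untreated libraries, although the titles of these samples name Pmel-1 cells too. Both transgenes give T cells a single receptor specificity, so in every group the culture began with whole spleens stimulated by the peptide that this receptor recognises, for 24 hours. The cells were then expanded for 6 days in IL-2 and sorted for CD8 on day 7. DCA inhibits the kinases that switch off pyruvate dehydrogenase and so favours the oxidation of pyruvate in mitochondria, and the title of the series gives its purpose as improving T cell therapy by changing glucose use during expansion. Each mouse gave 1 DCA and 1 untreated library. Strain, technical batch and experiment coincided, so these cannot be told apart in any comparison between the experiments.

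Ribosome production begins with RNA polymerase I, which transcribes the long precursor of the ribosomal RNAs. Small nucleolar ribonucleoproteins (snoRNPs) then mark positions for methylation (box C/D) or pseudouridine formation (box H/ACA). Meanwhile the small-subunit processome and the 60S assembly factors fold and cut the precursor into the parts of the 2 subunits. In T cells this machinery is induced strongly after antigen stimulation, when cells grow and divide, and the transcription factor MYC is a known activator of many of its genes.

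Library totals were between 28039699 and 41051066 counts. CPM are counts scaled by library total and TMM factor, except those of the cell type markers, which are scaled by library total alone. The lowest value of any factor in any library was 3.90 CPM for Rrp12, and the next lowest factor, Utp20, had at least 7.88 CPM. Fewer genes were detected in experiment 1 (18382 to 19551 per library) than in experiment 2 (23635 to 26571). The 5 CD8 T cell markers summed to 3776 to 3952 CPM in DCA cells and 4487 to 4998 CPM in untreated cells of experiment 2, and to 4325 to 4717 CPM in DCA cells and 3580 to 4289 CPM in untreated cells of experiment 1. Cd4 did not exceed 0.638 CPM. The 5 B cell markers summed to 33.3 to 38.4 CPM in DCA cells and 23.9 to 26.9 CPM in untreated cells of experiment 2. In experiment 1 they summed to 27.3 to 38.2 CPM in DCA cells and 12.6 to 18.2 CPM in untreated cells. Nearly all of this was Cd79b, while Ms4a1 (at most 0.0344 CPM), Pax5 (0.0974) and Cd79a (0.348) were near 0 in every library. Scaled by library total, the B cell sums were higher in DCA cells of both experiments. The CD8 sums were lower in DCA cells of experiment 2 and higher in those of experiment 1. TMM factors were 0.818 to 0.845 in untreated and 0.910 to 0.934 in DCA libraries of experiment 1. With these factors applied, the CD8 ranges of experiment 1 overlap. The part of both sums in the DCA results was not tested. The 5 myeloid markers summed to 0.844 to 2.99 CPM in DCA cells and 0 to 0.541 CPM in untreated cells of experiment 2, and to 1.49 to 3.15 CPM in DCA cells and 0.976 to 1.75 CPM in untreated cells of experiment 1. The NK cell markers summed to 0.0579 to 1.34 CPM in experiment 2 and 5.01 to 11.7 CPM in experiment 1. The part of these markers in the results was not tested. The erythroid markers reached at most 0.929 CPM and the dendritic cell markers 0.688 CPM. In bulk samples, fewer cells of a type and less RNA per cell cannot be told apart.

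MYC and its partners bind the E-box CACGTG, so the promoters of the factors are shown where they hold this sequence. RefSeq promoters (250 bases before the gene start to 50 bases after it, build GRCm38.p6) were matched by symbol for 35 of the 41 factors. The E-box is the same on both strands, and 8 of the 35 promoters held it (22.9%), against 11.6% of the 10259 tested genes with a promoter sequence and 8.09% of all 27025 genes. In 7 of the 8 it began after the gene start, at bases 3 to 41 of the transcribed strand, a position noticed after the matches were seen. An E-box in those first 50 bases was present in 20.0% of the 35 promoters and in 1.89% of those of tested genes. Windows of 30 bases are given 5′ to 3′ in the direction of the gene, with the E-box in capitals.
Nop2: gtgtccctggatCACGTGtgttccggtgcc
Grwd1: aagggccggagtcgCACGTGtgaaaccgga
Ltv1: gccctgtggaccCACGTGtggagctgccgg
Utp20: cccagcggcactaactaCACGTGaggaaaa
Pes1: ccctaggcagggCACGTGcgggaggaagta
Mybbp1a: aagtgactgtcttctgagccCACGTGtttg
Tsr1: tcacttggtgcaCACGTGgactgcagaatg
Wdr43: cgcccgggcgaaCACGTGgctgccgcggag
The windows lie at chr6:125131811-125131840 (plus strand) for Nop2, chr7:45830740-45830769 (minus) for Grwd1, chr10:13193092-13193121 (minus) for Ltv1 and chr10:88826765-88826794 (minus) for Utp20. Those of chromosome 11 lie at chr11:3963965-3963994 for Pes1, chr11:72441347-72441376 for Mybbp1a and chr11:74898092-74898121 for Tsr1, and that of Wdr43 lies at chr17:71616220-71616249, all on the plus strand. The Nop2 E-box began 60 bases before the gene start. The ETS motif CCGGAAGT, searched on both strands, was in 22.9% of the 35 promoters, against 9.38% of those of tested genes. These matches are descriptions of sequence, and the files hold no binding data.

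In the fit over both experiments, which had an experiment term, 19 of the 41 ribosome biogenesis factors fell in DCA cells and 0 rose at an adjusted p under 0.05 (edgeR quasi-likelihood test with Benjamini-Hochberg adjustment over all 15688 genes, used throughout). Among all tested genes 9.80% fell and 7.01% rose. The estimate was below 0 for 40 of the 41 factors (35 under total-count scaling and 38 under cyclic loess normalization), with a median log2 fold change of -0.33, against -0.02 over all tested genes. No factor rose at an unadjusted p under 0.05 either, and DESeq2 and limma-voom called 0 higher and 24 and 17 lower. The count of factors that fell was 12 under total-count scaling, 12 under cyclic loess, where Npm1 rose, 15 with a term per mouse (replicate block) and 12 without untreated mouse 2 of experiment 2. It was 0 without the term for experiment, a fit that called 46 genes in all.

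**Figure D1:**
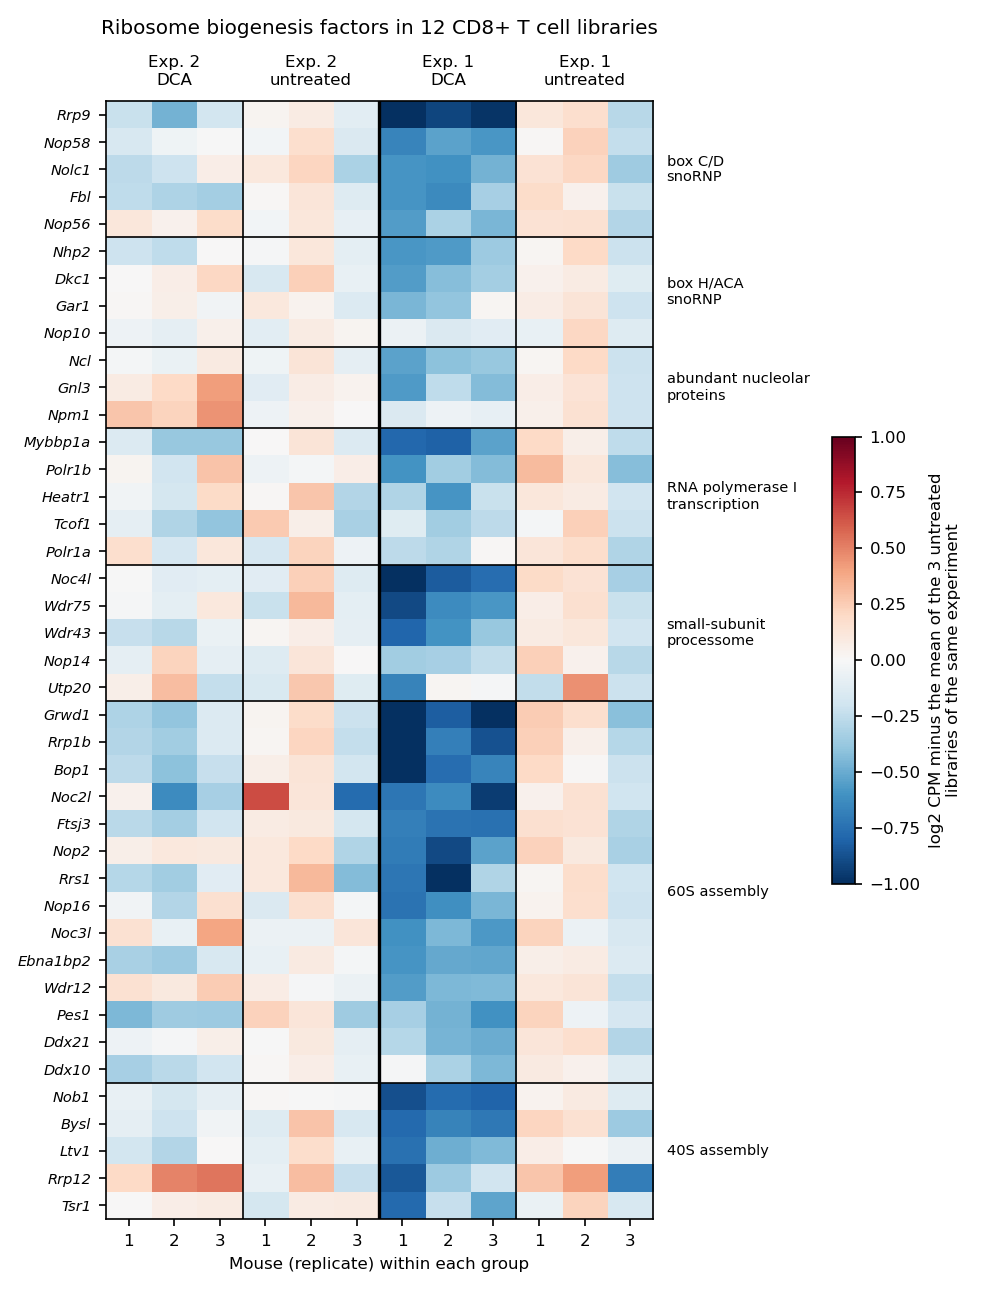
Heatmap of log2 CPM of the 41 factors (rows, by role) in 12 libraries (columns: DCA then untreated, experiment 2 left, experiment 1 right), each value minus the mean of the 3 untreated libraries of the same experiment. The 3 DCA libraries of experiment 1 are lower (blue) for nearly every factor, those of experiment 2 are mixed, and untreated mouse 3 of experiment 1 is the lowest of its group for 40 of the 41 factors.

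The factors that fell over both experiments came from 6 of the 7 role groups. Of the 14 factors of 60S assembly, 9 fell, with a median log2 fold change of -0.43 over both experiments. Among the box C/D proteins 3 of 5 fell (median -0.36), among the 40S factors 3 of 5 (median -0.36) and among the processome proteins 2 of 5 (median -0.36). Only 1 of 5 genes of RNA polymerase I transcription fell (Mybbp1a, median of the group -0.21) and 1 of 4 box H/ACA proteins (Nhp2, median -0.15). None of the 3 abundant nucleolar proteins was called (median -0.09). No test compared the role groups.

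Rrp9 (ENSMUSG00000041506.16), which binds the U3 box C/D snoRNA needed for the first cuts of the precursor, had the largest fall of the 41 over both experiments. It stood at 73.9, 62.2 and 75.9 CPM in DCA cells and 87.8, 91.4 and 80.2 CPM in untreated cells of experiment 2. In experiment 1 it stood at 27.2, 34.0 and 32.6 CPM in DCA cells and 69.2, 72.1 and 52.9 CPM in untreated cells. The groups did not overlap in either experiment, and the gap was wider in experiment 1. The log2 fold change was -0.66 ± 0.13 (SE; adjusted p = 0.00394; lower in 6 of 6 mice). By mouse, 10 of the 41 factors were lower in all 6 mice, as were 10.8% of all tested genes. In all 3 mice, 10 of the 41 were lower in experiment 2 and 34 in experiment 1 (23.0% and 25.3% of all tested genes). Fibrillarin (Fbl), the methyltransferase of the box C/D snoRNPs, had 62.1, 59.9 and 58.5 CPM in DCA cells and 74.7, 80.5 and 67.6 CPM in untreated cells of experiment 2. Its values in experiment 1 were 45.8, 44.2 and 54.6 CPM in DCA cells and 77.9, 70.7 and 59.0 CPM in untreated cells. Here too DCA and untreated libraries were separate in both experiments, with a log2 fold change of -0.41 ± 0.087 (adjusted p = 0.00484; 6 of 6 mice). Nop58, a scaffold protein of the same particles, fell by 0.34 ± 0.10 on the log2 scale (adjusted p = 0.0333, and 0.0650 with the replicate block), whereas its partner Nop56 (-0.17) and the chaperone Nolc1 (-0.36) did not pass the test.

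Of the box H/ACA proteins, Nhp2, an RNA-binding core protein, fell by 0.33 ± 0.086 on the log2 scale (adjusted p = 0.0154; lower in 5 of 6 mice). Dkc1, the pseudouridine synthase, had a log2 fold change of -0.18, Gar1 of -0.13 and Nop10 of -0.07, and none of these 3 passed the test. The abundant nucleolar proteins nucleolin (Ncl, -0.22) and nucleostemin (Gnl3, -0.09) did not pass it over both experiments either. Nucleophosmin (Npm1), a chaperone of ribosomal proteins, was the 1 factor with a positive estimate (0.11 ± 0.079, adjusted p = 0.396).

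Mybbp1a, a nucleolar protein that associates with RNA polymerase I, had 65.2, 55.1 and 55.0 CPM in DCA cells and 71.7, 78.4 and 65.2 CPM in untreated cells of experiment 2. The experiment 1 values were 29.8, 29.2 and 35.5 CPM in DCA cells and 58.8, 53.3 and 43.1 CPM in untreated cells. All DCA libraries lay below all untreated libraries of their experiment, though DCA mouse 1 and untreated mouse 3 of experiment 2 were nearly equal, and the log2 fold change was -0.50 ± 0.11 (adjusted p = 0.0048; 6 of 6 mice). The catalytic subunits Polr1a (-0.08) and Polr1b (-0.21), the polymerase cofactor treacle (Tcof1, -0.26) and Heatr1 (-0.19), which joins transcription to early processing, did not pass the test. In the processome, Wdr43 had 196, 189 and 220 CPM in DCA cells and 233, 241 and 216 CPM in untreated cells of experiment 2. Its values in experiment 1 were 178, 204 and 238 CPM in DCA cells and 327, 335 and 270 CPM in untreated cells. The groups overlapped in experiment 2, where DCA mouse 3 lay above untreated mouse 3, but not in experiment 1. The log2 fold change was -0.39 ± 0.091 (adjusted p = 0.00922; lower in 5 of 6 mice). Noc4l fell by 0.49 ± 0.14 on the log2 scale (adjusted p = 0.0289, and 0.0769 with the replicate block), while Wdr75 (-0.36), Nop14 (-0.15) and Utp20 (-0.09) did not pass the test.

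Ebna1bp2, which acts in early 60S maturation, had the smallest adjusted p of the 41. It stood at 228, 223 and 257 CPM in DCA cells and 272, 305 and 283 CPM in untreated cells of experiment 2. Its values in experiment 1 were 421, 444 and 443 CPM in DCA cells and 658, 672 and 575 CPM in untreated cells. The groups were separate in both experiments, and the log2 fold change was -0.41 ± 0.065 (adjusted p = 0.000832; 6 of 6 mice). Bop1, a member of the PeBoW complex that is needed for processing of the 60S precursor, had 50.0, 45.1 and 51.2 CPM in DCA cells and 62.4, 65.7 and 52.8 CPM in untreated cells of experiment 2. Those of experiment 1 were 16.5, 22.4 and 24.0 CPM in DCA cells and 43.7, 38.3 and 32.8 CPM in untreated cells. The groups again did not overlap, with a log2 fold change of -0.58 ± 0.13 (adjusted p = 0.00581; 6 of 6 mice). Its partner Pes1 fell too (-0.44 ± 0.12, adjusted p = 0.0171), but the third member, Wdr12, did not pass the test (-0.16 ± 0.11, adjusted p = 0.348).

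Grwd1, whose yeast relative Rrb1 is a chaperone of a 60S ribosomal protein, had 49.2, 46.4 and 55.6 CPM in DCA cells and 62.3, 69.3 and 52.6 CPM in untreated cells of experiment 2. It had 22.2, 25.2 and 20.8 CPM in DCA cells and 53.3, 50.4 and 33.4 CPM in untreated cells of experiment 1. Its groups overlapped in experiment 2 and were apart in experiment 1 (-0.64 ± 0.15, adjusted p = 0.00837; lower in 5 of 6 mice). The values of Rrp1b in experiment 2 were 67.1, 64.5 and 74.5 CPM in DCA cells and 83.4, 95.4 and 69.5 CPM in untreated cells. In experiment 1 they were 39.1, 55.8 and 49.1 CPM in DCA cells and 106, 92.9 and 73.6 CPM in untreated cells. Rrp1b, whose yeast relative Rrp1 acts in 60S rRNA processing, thus showed the same pattern of overlap as Grwd1 (-0.59 ± 0.14, adjusted p = 0.00877; 5 of 6 mice). Ftsj3, an rRNA methyltransferase, had 46.5, 44.5 and 49.1 CPM in DCA cells and 59.4, 60.1 and 49.8 CPM in untreated cells of experiment 2. Its values in experiment 1 were 34.5, 33.3 and 33.1 CPM in DCA cells and 61.9, 61.1 and 45.0 CPM in untreated cells. These groups did not overlap in either experiment (-0.50 ± 0.11, adjusted p = 0.00495; 6 of 6 mice). Rrs1 (-0.47), the helicase Ddx10 (-0.25) and Noc2l (-0.57) also fell, with adjusted p-values of 0.0393, 0.0391 and 0.0494, and the adjusted p of Rrs1 was 0.0950 with the replicate block. Nop2 (-0.32), Nop16 (-0.33), Noc3l (-0.20) and the helicase Ddx21 (-0.22) did not pass the test.

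In 40S assembly, Nob1 (ENSMUSG00000003848.15), the nuclease that makes the last cut of the 18S rRNA, had 83.3, 77.5 and 82.3 CPM in DCA cells and 88.3, 87.3 and 87.1 CPM in untreated cells of experiment 2. Its experiment 1 values were 59.0, 63.4 and 62.2 CPM in DCA cells and 111, 115 and 99.2 CPM in untreated cells. The groups did not overlap in either experiment, and the gap was wider in experiment 1. The log2 fold change over both was -0.46 ± 0.11 (adjusted p = 0.00921; 6 of 6 mice). Ltv1 (-0.36, adjusted p = 0.0154) and Bysl (-0.43, adjusted p = 0.0393, and 0.0865 with the replicate block) fell as well, while Tsr1 (-0.23) and Rrp12 (-0.05) did not pass the test. The 10 factors given per library, with Ltv1 and Nhp2, were called in all 12 fits that left out 1 library, the 12 of the 19 for which this held. The calls of Nop58, Noc4l, Pes1, Noc2l, Ddx10, Rrs1 and Bysl were lost in 3 to 10 of those fits, all 7 without untreated mouse 2 of experiment 2, and the highest adjusted p was 0.146, for Ddx10.

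**Figure D2:**
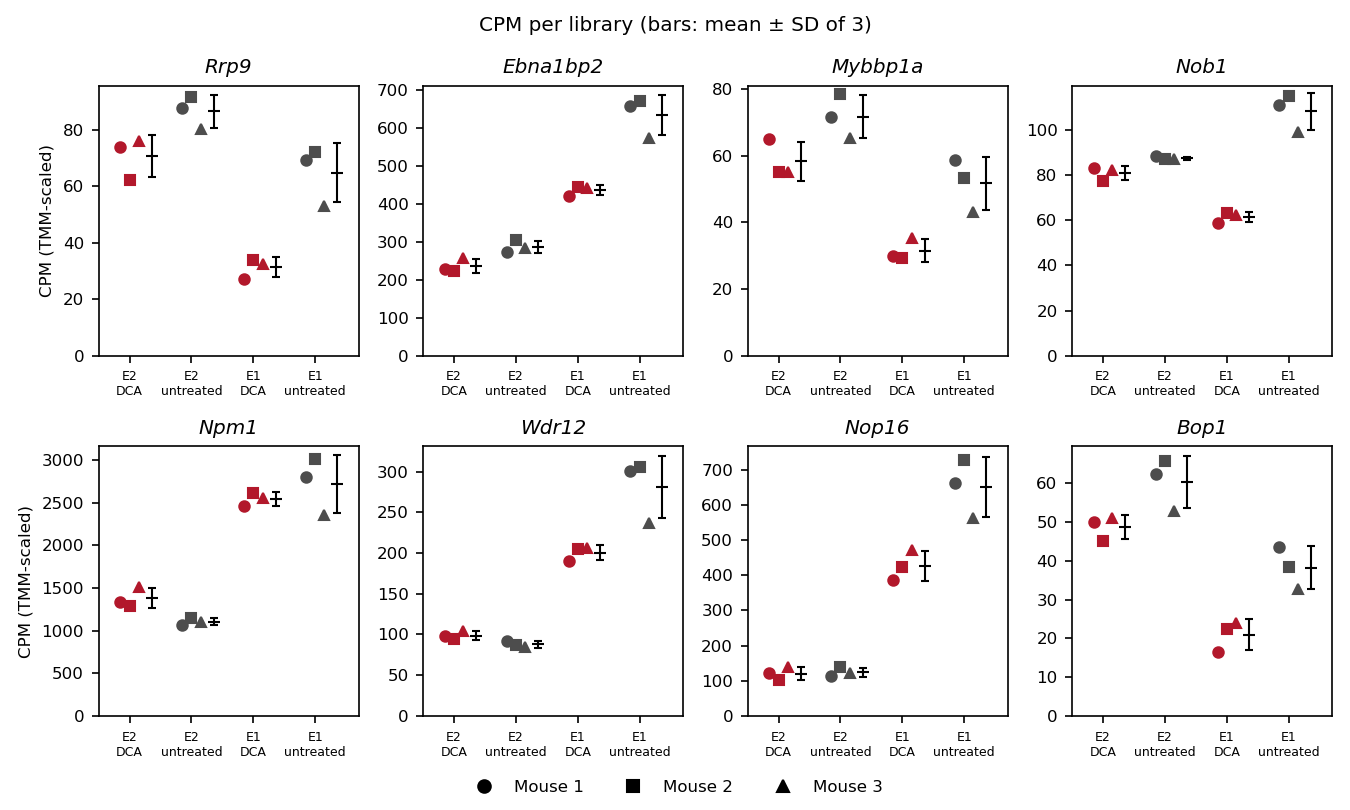
CPM (TMM-scaled, linear axis from 0) of 8 factors in each library, with DCA left of untreated in each experiment and the mean ± SD of 3 mice. Rrp9, Ebna1bp2, Mybbp1a, Nob1 and Bop1 are lower in DCA cells of both experiments, though no factor was called lower in experiment 2. Npm1 is higher in DCA cells of experiment 2, and Nop16, Wdr12 and Npm1 are lower in experiment 2 than in experiment 1.

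By experiment, calls of lower factors were made in experiment 1. In experiment 2, 0 of the 41 factors fell and 1 rose, where 2.20% of all tested genes fell and 2.37% rose. The median log2 fold change of the factors was -0.07 there, against 0.003 over all tested genes, and 26 of the 41 estimates were below 0. At an unadjusted p under 0.05, 7 factors fell, and DESeq2 called 2 lower and limma-voom 1. In experiment 1, 28 of the 41 factors fell and 0 rose, where 11% of all tested genes fell and 5.67% rose. All 41 estimates were below 0 (39 under total-count scaling and under cyclic loess), from -1.05 to -0.10, and the median was -0.52, against -0.03 over all tested genes. No factor rose at an unadjusted p under 0.05, in DESeq2 or in limma-voom. Of the 28, 18 were called in all 22 alternative fits, and the count ran from 20 under total-count scaling and cyclic loess to 32 without untreated mouse 3. The calls of Nolc1, Gnl3, Noc3l, Ddx21, Rrs1 and Tsr1 were lost in 4 to 10 of the 12 fits that left out 1 library, and with the replicate block Rrs1 was lost (adjusted p = 0.0648) and Noc2l gained (-0.77, adjusted p = 0.0241). Total-count scaling moved the median of all genes to 0.11 in experiment 1, with the factors' median at -0.38 under it.

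By groups that did not overlap, 9 of the 41 factors had all 3 DCA libraries below all 3 untreated libraries in experiment 2, and 3 had all above (14.6% and 15.6% of all tested genes). In experiment 1, 30 of the 41 had all DCA libraries below and 0 above (18.0% and 11.3% of all tested genes). In single mice, the median log2 ratio of DCA to untreated over the 41 factors was -0.05, -0.36 and 0.10 in mice 1 to 3 of experiment 2. It was -0.74, -0.67 and -0.21 in mice 1 to 3 of experiment 1, while over all tested genes every mouse lay between -0.05 and 0.01. Untreated mouse 3 of experiment 1 was the lowest of its group for 40 of the 41 factors, against 34.9% of all tested genes. Its DCA library was the highest of its group for 20 factors and the lowest for 6, against 29.4% of all tested genes for the lowest. Untreated mouse 2 of experiment 2 was the highest of its group for 32 factors and the lowest for 1, against 33.0% of all tested genes for the lowest. The share of all tested genes was not computed for the highest library. Without untreated mouse 3 of experiment 1 the factors' median in that experiment was -0.62, and without untreated mouse 2 of experiment 2 it was -0.01 in experiment 2.

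**Figure D3:**
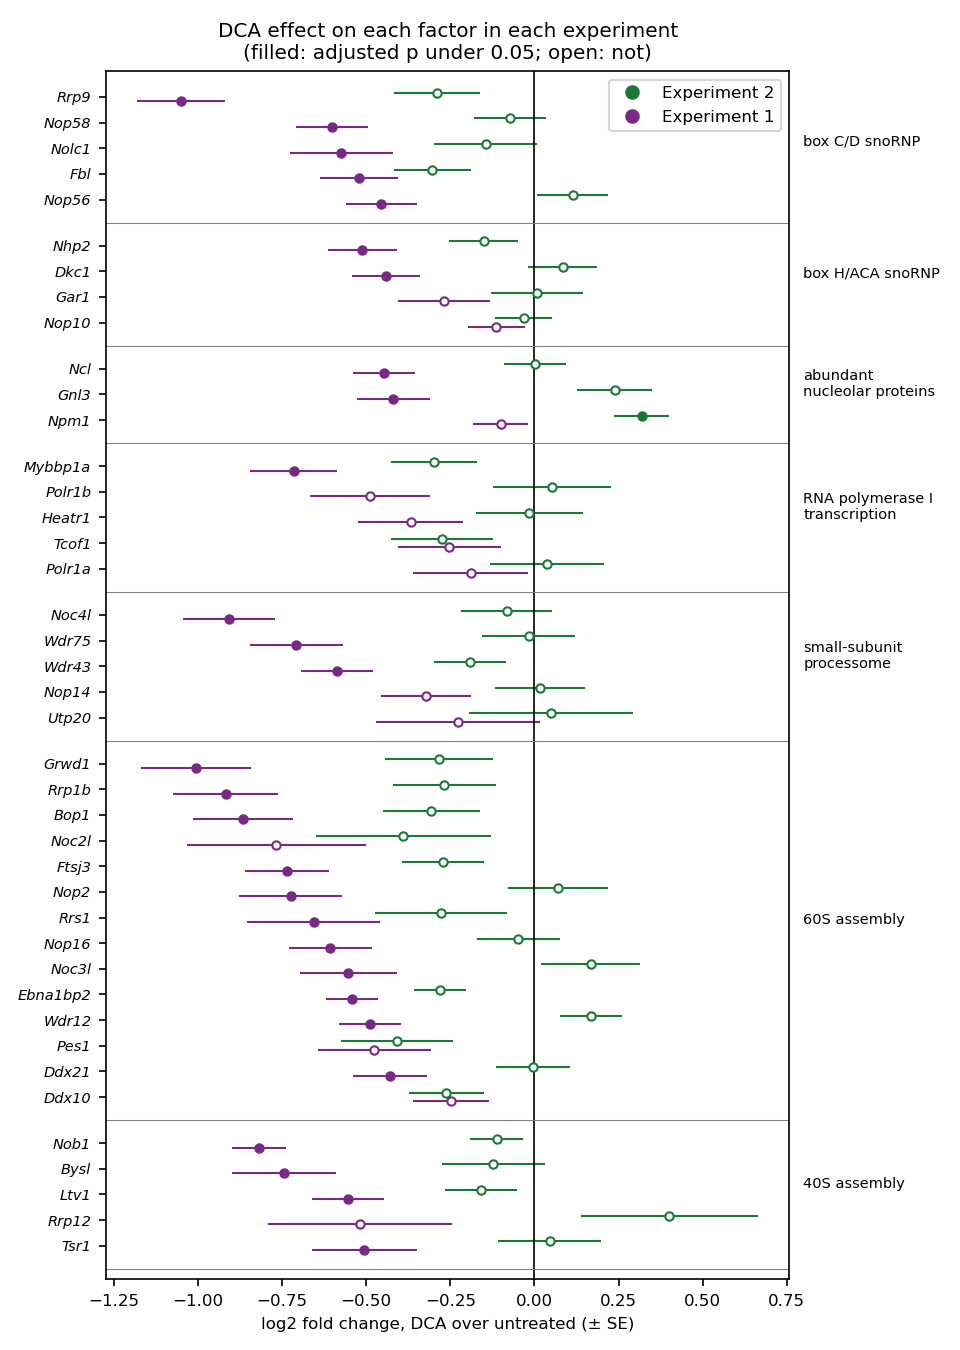
Log2 fold change of DCA over untreated cells (± SE) for each of the 41 factors in experiment 2 (green) and experiment 1 (purple), with filled points for an adjusted p under 0.05. In experiment 1 all 41 points lie left of 0 and 28 are filled, and in experiment 2 the points lie on both sides with Npm1 the 1 that is filled.

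The smallest adjusted p-values in experiment 1 were those of Nob1 (-0.82 ± 0.080, adjusted p = 9.23e-05), Rrp9 (-1.05 ± 0.13, adjusted p = 0.000288), Ebna1bp2 (-0.54 ± 0.077, adjusted p = 0.000482) and Noc4l (-0.91 ± 0.14, adjusted p = 0.000768). Noc4l, which works with Nop14 in the export of the small subunit, had 132, 122 and 124 CPM in DCA cells and 123, 157 and 122 CPM in untreated cells of experiment 2. In experiment 1 it had 77.4, 92.8 and 97.1 CPM in DCA cells and 189, 182 and 131 CPM in untreated cells. Its DCA and untreated libraries thus overlapped in experiment 2 and were far apart in experiment 1. By role, 5 of 5 box C/D proteins, 2 of 4 box H/ACA proteins, 2 of 3 abundant nucleolar proteins, 1 of 5 genes of RNA polymerase I transcription, 3 of 5 processome proteins, 11 of 14 factors of 60S assembly and 4 of 5 of 40S assembly fell in experiment 1. Pes1, Noc2l and Ddx10 were called over both experiments and not in experiment 1 alone.

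Npm1 (ENSMUSG00000057113.14) rose in DCA cells of experiment 2. It had 1339, 1286 and 1509 CPM in DCA cells and 1065, 1145 and 1106 CPM in untreated cells of experiment 2. In experiment 1 it had 2456, 2614 and 2553 CPM in DCA cells and 2804, 3015 and 2352 CPM in untreated cells. All DCA libraries lay above all untreated libraries in experiment 2, and the groups overlapped in experiment 1. The log2 fold change in experiment 2 was 0.32 ± 0.082 (adjusted p = 0.0409; higher in 3 of 3 mice) and that in experiment 1 was -0.10 ± 0.082 (adjusted p = 0.455). The call in experiment 2 was lost with a term per mouse (replicate block, adjusted p = 0.0543) and without any 1 of the 6 libraries of experiment 2 (adjusted p 0.108 to 0.28). It was lost too with RLE size factors (adjusted p = 0.0643), after removal of the GC trend (adjusted p = 0.0799) and without untreated mouse 1 or DCA mouse 3 of experiment 1 (adjusted p 0.0501 and 0.0519).

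**Figure D4:**
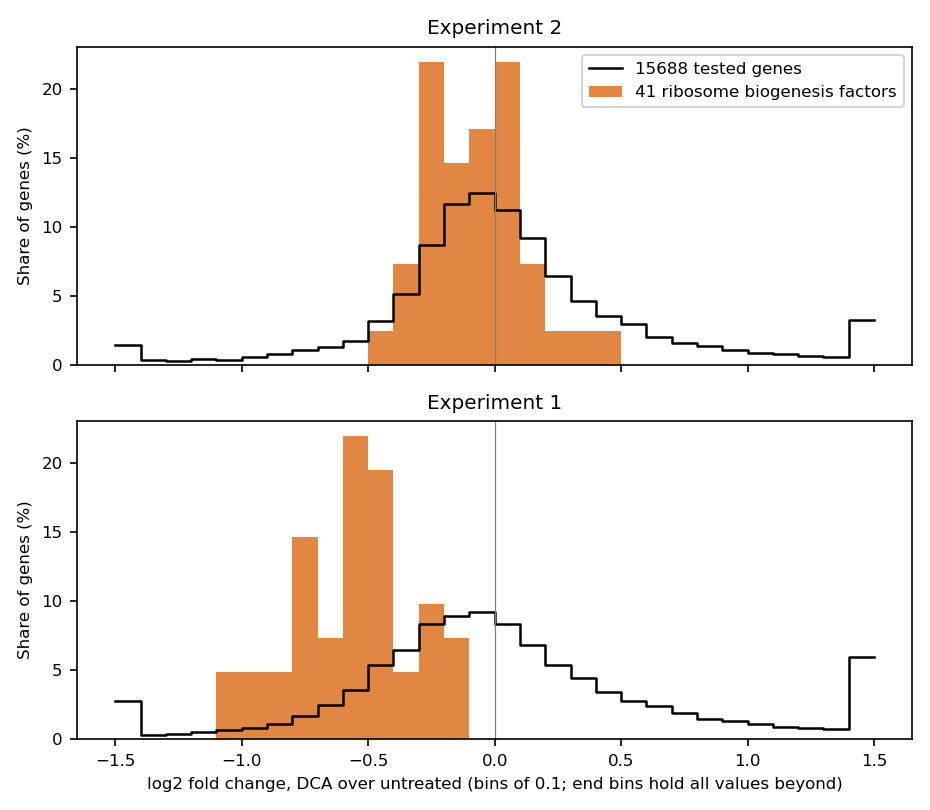
Share of genes (%) by log2 fold change of DCA over untreated cells in bins of 0.1, for the 41 factors (orange bars) and the 15688 tested genes (black line), in experiment 2 (top) and experiment 1 (bottom). The factors spread around 0 in experiment 2 and lie wholly below 0 in experiment 1, with a median of -0.52.

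The difference of the DCA effects was tested directly, as the effect in experiment 2 minus that in experiment 1. The estimate was above 0 for 39 of the 41 factors, with a median of 0.45 on the log2 scale, against 0.04 over all tested genes. Of the 41, 1 was called higher and 0 lower, where 0.280% and 0.0510% of all tested genes were called. At an unadjusted p under 0.05, 28 factors were higher and 0 lower, and DESeq2 called 9 higher and limma-voom 2, and neither called one lower. The called factor was Nob1, with log2 fold changes of -0.11 ± 0.079 in experiment 2 and -0.82 ± 0.080 in experiment 1, a difference of 0.71 ± 0.11 (adjusted p = 0.0168). This call was lost with a term per mouse (replicate block, adjusted p = 0.0634) and in 8 of the 12 fits that left out 1 library, with adjusted p-values of 0.0520 to 0.156 there. Wdr12 followed with a difference of 0.66 ± 0.13 (adjusted p = 0.0504). Without untreated mouse 3 of experiment 1, 12 factors were called higher. The difference is between 2 experiments that differ in strain and batch.

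Other genes of the pathway were taken from lists chosen by function. Of 114 tested factors in 5 further lists, 46 fell and 0 rose over both experiments (9.80% and 7.01% of all tested genes), with a median log2 fold change of -0.26. By list, 18 of 37 other processome proteins fell (median -0.27), 18 of 47 other 60S factors (median -0.27), 4 of 7 other 40S factors (median -0.32) and 6 of 11 exosome proteins (median -0.28). None of 12 other genes of RNA polymerase I transcription was called (median -0.14), where 2 were lower at an unadjusted p under 0.05 and DESeq2 called 1 and limma-voom 0. In experiment 2, 7 of the 114 fell and 0 rose (2.20% and 2.37% of all tested genes), and in experiment 1, 68 fell and 0 rose (11% and 5.67%). The processome protein Utp3 fell most clearly over both experiments (-0.52 ± 0.066, adjusted p = 0.000254), with Tbl3 (-0.62), the 60S factors Eif6 (-0.49) and Gnl2 (-0.50), the 40S factors Tsr3 (-0.42) and Riok1 (-0.34), and the exosome helicase Mtrex (-0.45) and subunit Exosc4 (-0.43). Utp3, Tbl3, Tsr3 and Mtrex were also called in experiment 2 (-0.42, -0.44, -0.37 and -0.38).

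Among transcripts of the ribosomal proteins themselves there were calls in both directions. Of 79 cytosolic ribosomal protein genes, 14 fell and 11 rose over both experiments (9.80% and 7.01% of all tested genes), with a median log2 fold change of -0.02. In experiment 2, 4 fell and 7 rose (2.20% and 2.37% of all tested genes), and in experiment 1, 14 fell and 5 rose (11% and 5.67%). Rpl35a (-0.38 ± 0.056) and Rpl27 (-0.30 ± 0.051) fell, and Rps19 (0.41 ± 0.058) rose. Reads of these genes can be shared with their many pseudogenes, so single values are uncertain. Myc had 776, 973 and 964 CPM in DCA cells and 723, 768 and 712 CPM in untreated cells of experiment 2. In experiment 1 it had 223, 243 and 232 CPM in DCA cells and 379, 340 and 321 CPM in untreated cells. The groups were apart in both experiments and in opposite directions, higher in DCA cells of experiment 2 (0.30 ± 0.087, adjusted p = 0.0649) and lower in DCA cells of experiment 1 (-0.58 ± 0.087, adjusted p = 0.000769). The difference of these effects was 0.88 ± 0.12 (adjusted p = 0.0107). Of 13 tested genes of the MYC network, 1 fell (Mxd3, -0.32) and 3 rose over both experiments, led by Txnip (0.66), a regulator of glucose uptake that responds to the MYC relatives MondoA and ChREBP, and by Mxd4 (1.00), a repressor of the network. The part of Myc in the levels of the 41 factors was not tested. Of the 8 factors with an E-box in the promoter window, 6 fell in experiment 1 (median -0.57), as did 19 of the 27 whose window held none (median -0.51). Over both experiments 5 of the 8 fell (median -0.37), as did 11 of the 27 (median -0.25).

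Levels of the factors were compared with each other per kilobase, using the gene length of the authors' deposited table and the mean over 12 libraries. Npm1 was highest at 727 CPM per kilobase, with 517 ± 43.8 in DCA cells and 415 ± 15.0 in untreated cells of experiment 2 and 954 ± 29.9 in DCA cells and 1022 ± 127 in untreated cells of experiment 1 (mean ± SD, n = 3 each). Nhp2 followed at 635, with 241 ± 23.1 in DCA cells and 267 ± 19.4 in untreated cells of experiment 2. In experiment 1 Nhp2 had 838 ± 72.0 in DCA cells, below Npm1, and 1195 ± 170 in untreated cells, above Npm1. Nop10 came next at 340. The lowest were Rrp12 at 1.97, Polr1a at 1.27 and Utp20 at 1.06, all in CPM per kilobase. The ranges of Npm1 (400 to 1131) and Nhp2 (224 to 1360.5) over the 12 libraries overlapped, as did those of Rrp12 (0.898 to 3.09), Polr1a (1.01 to 1.64) and Utp20 (0.773 to 1.72), so those neighbours are not ordered beyond their spread. The deposited lengths exceed the longest annotated transcript for many factors, and with that transcript as the length the same 3 factors were highest and the same 3 lowest. Npm1 and Ncl together made up 36.2% to 45.7% of the summed CPM of the 41. The sum was 5881 ± 373 CPM in DCA cells and 5824 ± 416 CPM in untreated cells of experiment 2, and 8966 ± 394 CPM in DCA cells and 11787 ± 1508 CPM in untreated cells of experiment 1 (mean ± SD, n = 3 each).

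Between the experiments, calls were made in both directions, among the factors as among all tested genes. In untreated cells, 17 of the 41 factors were lower in experiment 2 than in experiment 1 and 6 were higher (25.2% and 26.7% of all tested genes), with a median log2 fold change of -0.15, against 0.11 over all tested genes. In DCA cells, 15 were lower and 17 higher (24.1% and 28.1% of all tested genes), with a median of 0.20, against 0.11. Total-count scaling gave 9 lower in DCA cells, and GC removal gave 7 higher. The median in untreated cells turned positive under total-count scaling (0.28, with all genes at 0.53), and that in DCA cells turned negative when a GC trend was removed (-0.16, with all genes at -0.05). The same 15 factors were lower in both arms and the same 6 higher in both, and 1, Nob1, was lower in untreated and higher in DCA cells. With Nob1, 11 were higher in DCA cells and not in untreated cells, among them Nop56, Ftsj3, Noc4l and Rrp1b, and these comparisons share their libraries with those of DCA.

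The 4 lower factors with the smallest adjusted p in untreated cells were Nhp2, Nop16, Wdr12 and Nop10. Nop16 (ENSMUSG00000025869.12), a 60S assembly factor, had 112, 138 and 122 CPM in untreated cells of experiment 2 and 663, 728 and 562 CPM in untreated cells of experiment 1. Its ranges were far apart (-2.39 ± 0.13, adjusted p = 9.69e-10), as they were in DCA cells, with 121, 101 and 138 CPM in experiment 2 and 388, 423 and 473 CPM in experiment 1. Nhp2 had 303, 330 and 286 CPM in untreated cells of experiment 2 and 1379, 1559 and 1170 CPM in those of experiment 1 (-2.16 ± 0.11, adjusted p = 3.94e-10). Wdr12 had 92.2, 86.9 and 84.1 CPM in untreated cells of experiment 2 and 301, 305 and 237 CPM in those of experiment 1 (-1.68 ± 0.094, adjusted p = 1.53e-09). Nop10, a box H/ACA core protein, had 187, 212 and 205 CPM in untreated cells of experiment 2 and 545, 662 and 525 CPM in those of experiment 1 (-1.52 ± 0.086, adjusted p = 1.74e-09). None of these 4, picked by their adjusted p, overlapped between experiments. The share of all tested genes without such overlap was not computed. Noc3l, a 60S factor, also had a wide difference (-1.77 ± 0.15, adjusted p = 1.26e-07). For Ebna1bp2 the log2 fold change of experiment 2 over experiment 1 was -1.15 in untreated and -0.89 in DCA cells.

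In the other direction, Bop1 (0.66 ± 0.15), Mybbp1a (0.47 ± 0.13), Rrp9 (0.42 ± 0.13) and Noc2l (0.82 ± 0.26) were higher in untreated cells of experiment 2 than of experiment 1, with adjusted p-values of 0.00152, 0.00626, 0.0132 and 0.0176. Without untreated mouse 3 of experiment 1 the calls of Rrp9 (adjusted p = 0.0598) and Noc2l were lost, with those of Nop2 and Grwd1, and 2 factors were called higher. In DCA cells the 4 higher factors with the smallest adjusted p were Rrp9 (1.18 ± 0.13), Bop1 (1.22 ± 0.15), Nop2 (1.22 ± 0.15) and Grwd1 (1.15 ± 0.16), and Rrp12 had the largest estimate (1.26 ± 0.27). Nop2, an rRNA methyltransferase, had 76.9, 79.4 and 79.0 CPM in DCA cells of experiment 2 and 33.8, 29.4 and 37.8 CPM in those of experiment 1, with no overlap. Noc2l had 119, 82.5 and 44.5 CPM in untreated cells of experiment 2 and 47.9, 51.6 and 40.4 CPM in those of experiment 1, and these overlapped. After removal of a GC trend, Bop1 was at -0.07 and Rrp9 at -0.34 in untreated cells, and 26 factors were lower and 1 higher. Under total-count scaling 15 were lower and 15 higher. Myc was higher in experiment 2 in both arms (1.08 ± 0.088 in untreated and 1.96 ± 0.090 in DCA cells). Of 79 ribosomal protein genes, 68 were lower and 2 higher in untreated cells (25.2% and 26.7% of all tested genes), with a median of -0.69. Their reads can be shared with pseudogenes here too.

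**Figure D5:**
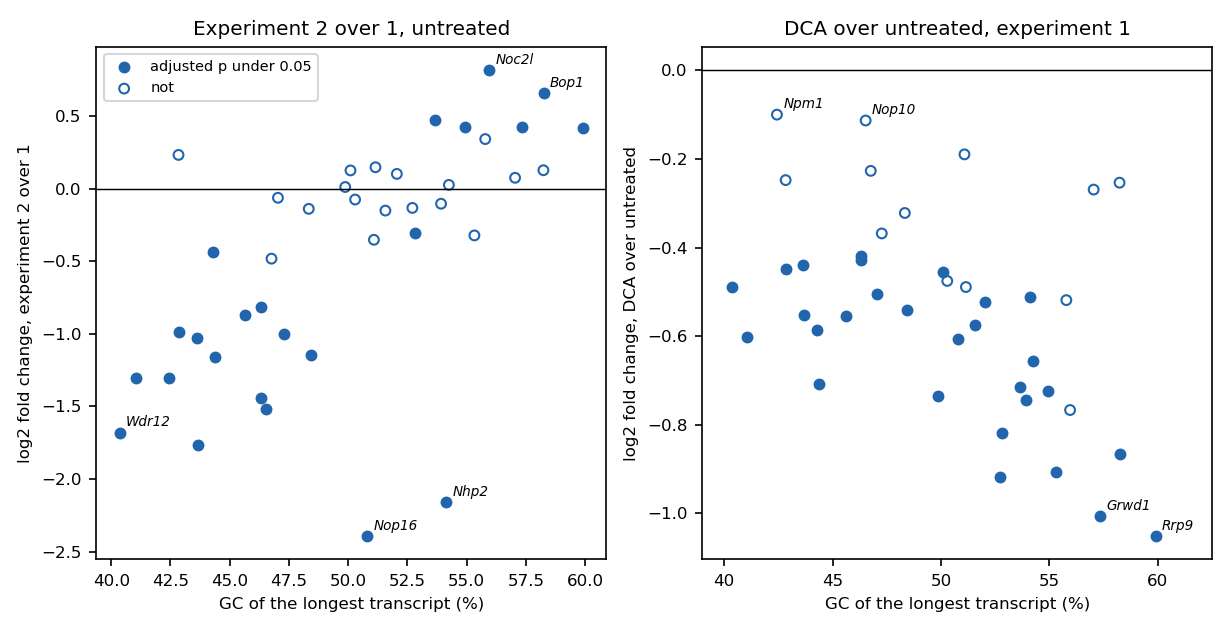
GC content of the longest transcript (%) of each of the 41 factors against its log2 fold change, experiment 2 over experiment 1 in untreated cells (left) and DCA over untreated in experiment 1 (right), with filled points for an adjusted p under 0.05. The 17 factors lower in experiment 2 lie at 40.4% to 54.1% GC and the 6 higher ones at 53.7% to 59.9%, and in experiment 1 the fold change with DCA is lower at higher GC over the factors (Spearman's rho -0.48).

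Transcript GC content moved with both differences. Over the 41 factors, Spearman's rho between GC and the log2 fold change of experiment 2 over experiment 1 was 0.67 in untreated cells, against 0.30 over the 15148 tested genes with a GC value. For DCA over untreated it was -0.45 in experiment 2 and -0.48 in experiment 1, against 0.02 and 0.01 over those genes. These are descriptions over genes that were measured in the same libraries. Factors above the median GC of the set held 3 of the 17 that were lower and all 6 that were higher in untreated cells of experiment 2. With the GC trend removed, in a limma fit that called 2430 genes lower over both experiments, against 1538 before, 24 factors fell over both experiments and 29 in experiment 1. The part of GC in the result was not tested. For 8 factors (Bop1, Bysl, Dkc1, Gnl3, Heatr1, Nop56, Rrp9 and Tsr1) a gene on the opposite strand shares exonic bases and has over 10% of the factor's count, and since the strand setting of the counting is not given in the sources used here, their values are uncertain. The share was 13.6% for Rrp9 and 12.3% for Bop1, while the partner of Bysl, Ccnd3, had 139036 counts against 13805.

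In the authors' deposited table of DCA against untreated cells, 12 of the 41 factors had a false discovery rate under 0.05, all with a negative log2 fold change. Over that whole table, 1588 of 15067 genes passed, 816 of them lower. The 12 factors were among the 19 that fell here.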

How the data were processed

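The authors deposited raw whole-number read counts per gene for the 12 libraries, not normalized. The submitters' processing notes name the build GRCm39 and the tools STAR 2.7.10a, fastp 0.23.2 and edgeR 3.36.0, with the read counter, annotation and strand setting not given in the sources used here. The authors' deposited comparison holds log2 fold changes, p-values and gene lengths, per the file headers, and pairs gene IDs with the symbols by which the 41 factors were found. The number of value columns matched to no library was 0.

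The analysis of the counts used the quasi-likelihood test of edgeR 4.0.16 (R 4.3.3), with filterByExpr over the 4 groups, TMM scaling and an adjusted p under 0.05 over 15688 genes. The comparison of DCA over both experiments had an experiment term, and the other comparisons were contrasts of 1 fit of group means. An SE was the log2 fold change over the root of its F statistic, without sign. Transcript GC and length are those of the longest GENCODE M21 transcript.

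Library totals ran between 28039699 and 41051066 counts, and replicates differed beyond sampling noise (chi-square per degree of freedom 10.8 to 29.8). The pairing comes from the design, since each mouse gave both arms. Deviations from group means correlated at 0.0443 to 0.0834 between libraries of the same mouse. They correlated at -0.0689 to -0.00438 between different mice, across the arms of the same experiment. Centring on group means ties these ranges to each other, so their contrast is partly built in.

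The members, lists and tests were chosen with earlier results of these data known. The rule for named factors took the 10 smallest adjusted p-values over both experiments, any positive estimate, up to 4 called factors per direction in each other comparison, called differences, the 3 highest and 3 lowest levels, and up to 2 called genes per direction in the other lists. Of the listed genes Polr1g had no matching symbol, and Mycl and Mlxipl did not pass the filter. Values of 1 marker gene and 1 gene that the rule names are not reported here. Alternatives were RLE factors, cyclic loess, limma-voom (limma 3.58.1), DESeq2 1.42.0, no filter, 5 CPM in 3 libraries, a term per mouse, no experiment term, only the libraries compared, and each library left out. Total-count scaling, removal of a GC trend and longest-transcript lengths were added after seeing the data.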

Additional observations from a re-analysis of the deposited data

Results flagged for a closer look

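For Nob1, lower in DCA cells of all 6 mice, the difference of the DCA effects (experiment 2 minus experiment 1) was 0.71 on the log2 scale and passed the test (adjusted p = 0.0168). With the replicate block it did not pass (adjusted p = 0.0634), nor in 8 of the 12 fits that left out 1 library. For Gnl3 and Wdr12 all 3 mice of experiment 2 were higher and all 3 mice of experiment 1 lower in DCA cells, with differences of 0.66 for each. These 2 differences did not pass the test (adjusted p = 0.0832 for Gnl3 and 0.0504 for Wdr12). Of all tested genes, 23.9% were higher in all 3 mice of experiment 2 and 25.3% lower in all 3 of experiment 1. The share of genes with both was not computed.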

How the results depend on the processing

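Of 1834 values recomputed under the alternatives, 1591 kept their direction and their side of the threshold (or moved by less than their limit), 119 no longer passed, 33 newly passed, 75 moved and 16 changed sign. The members' medians for DCA kept their sign under every alternative run. The cause of the changes listed here was not tested. Over both experiments, the fit with no experiment term called 46 genes in all (8 lower, 38 higher) and 0 members lower. Members called lower numbered 12 under total-count scaling and 12 under cyclic loess, which called 1 higher. Total-count scaling turned the split of all called genes to 798 lower and 1677 higher over both experiments (1538 and 1100 with TMM), 821 and 1483 in experiment 1 (1733 and 889), and 2378 and 6539 between untreated arms (3949 and 4182). It moved the median of all genes from -0.02 to 0.08 over both experiments, and to 0.53 and 0.45 between the untreated and DCA arms. Removal of the GC trend gave 2430 lower and 997 higher over both experiments.

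Estimates that changed sign over both experiments, none of them called, were Nop10 (0.0279 under total-count scaling, 0.0702 under loess), Gnl3 (0.00751 and 0.0284), Polr1a (0.0236 under total-count scaling), Utp20 (0.0126) and Rrp12 (0.0532, with 0.112 under limma-voom and 0.0663 with no experiment term). With 1 library left out, Utp20 ran from -0.15 to 0.0467, with 0.0117 without DCA mouse 1 of experiment 1. Rrp12 ran from -0.137 to 0.0937, with 0.0467 without untreated mouse 1 and 0.0821 without DCA mouse 1 of experiment 1. With the GC trend removed, Bop1 (-0.0749) and Rrp9 (-0.337) turned negative between untreated arms.

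In experiment 1, the fit on only the libraries compared called 1050 genes. In experiment 2, limma-voom called 1171 genes, DESeq2 1512, no filter 1116, only the libraries compared 1496 and GC removal 1235, against 717. Members called lower there numbered 1 with RLE factors, limma-voom, the 5 CPM filter and only the libraries compared, and 2 with DESeq2 and GC removal; members called higher numbered 0 with RLE factors, GC removal and the replicate block. For the difference between experiments, cyclic loess called 28 genes, DESeq2 458, no filter 566 and the replicate block 24, against 52. Members higher in it numbered 2 with limma-voom and with the 5 CPM filter, 9 with DESeq2, 15 with no filter and 0 with the replicate block. Between untreated arms, GC removal gave 26 members lower and 1 higher, and total-count scaling 15 higher; between DCA arms total-count scaling gave 9 lower and GC removal 7 higher. The replicate block, the term per mouse, changed no other call of a member than those given beside the results.

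With 1 library left out, genes called ran from 1916 to 2531 over both experiments, 1785 to 2674 in experiment 1, 207 to 849 in experiment 2, 1 to 217 for the difference, 7419 to 8305 between untreated arms and 7210 to 8347 between DCA arms. Members lower ran from 12 to 23 over both experiments, 22 to 32 in experiment 1 and 0 to 2 in experiment 2, where members higher ran from 0 to 1. For the difference, members higher ran from 0 to 12. Members higher ran from 2 to 7 between untreated arms and 12 to 18 between DCA arms, and members lower from 16 to 19 and from 15 to 15. The members' median ran from -0.37 to -0.26, -0.62 to -0.45 and -0.19 to -0.01 over both experiments, in experiment 1 and in experiment 2. Of the levels, longest-transcript lengths moved Npm1 to 1186 and Polr1a to 1.64 CPM per kilobase. The number of mice, 3 per arm, limits what could be called.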
